A study of Mus musculus with 12 samples.

Results

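The interleukin-1 and interleukin-18 family was followed through sorted glomerular endothelial cells (GEC) of healthy and Alport mice. The members were the rows whose gene name is that of a ligand (*Il1a*, *Il1b*, *Il18*, *Il33*), of the receptor antagonist (*Il1rn*) or of a receptor chain (*Il1r1*, *Il1r2*, *Il1rap*, *Il18r1*, *Il18rap*), which makes 10 of the 19564 genes in the deposited tables. RNA-seq was done on the dim and the bright tdTomato (tdT) subpopulation of 3 wild type (WT) and 3 Alport syndrome (AS) mice, 12 libraries in all. The AS mice were Col4a5 -/-, that is, they lacked a chain of the collagen IV network of the glomerular basement membrane, and both genotypes were C57BL/6 mice 4 months old that carried a Tek-driven Cre and a tdT reporter. Each of the 4 groups, WT-dim, AS-dim, WT-bright and AS-bright, thus had 3 libraries, with the dim and the bright library of a number coming from the same mouse. The dim table held 9 members and lacked *Il33*, the bright table held 9 and lacked *Il18r1*, and 8 were in both. Tek-Cre marks the endothelium but is also known to be active in blood-forming cells, and the gates were set on tdT brightness, which limits the dim and bright cells as a model of endothelial subtypes.

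IL-1 alpha and IL-1 beta signal through the same receptor, which is made of IL1R1 and the accessory chain IL1RAP, and the antagonist IL-1RA, encoded by *Il1rn*, occupies IL1R1 without signalling. IL1R2 binds the ligands but lacks a signalling domain and so acts as a decoy. IL-18 uses a sister receptor of IL18R1 and IL18RAP, and IL-33 is an alarmin stored in nuclei, known from endothelial and epithelial cells. IL-1 beta and IL-18 are made as precursors that inflammasomes process through caspase-1, whereas IL-1 alpha is active as a precursor too, and endothelial cells are a classical target, answering with adhesion molecules and chemokines.

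Some of the genes lie close together. *Il18*, *Il1rap* and *Il33* lie apart, on chromosomes 9, 16 and 19, and *Il1rn* is far from the other members of chromosome 2. *Il1a* (chromosome 2, 129299610 to 129309972, minus strand of GRCm38) and *Il1b* (129364570 to 129371139, minus strand) are neighbours 54.6 kb apart. On chromosome 1, *Il1r2* (40074079 to 40125231), *Il1r1* (40225080 to 40317257), *Il18r1* (40465552 to 40500854) and *Il18rap* (40515362 to 40551705), each on the plus strand, share a stretch of 478 kb. The promoters of 4 members are printed because these neighbours had different levels in the same cells: *Il1a* and *Il1b*, whose order differed between dim and bright cells, and *Il1r1* and *Il18rap*, the first higher in bright and the second higher in dim cells. Each is the 250 bases before an annotated start site, from RefSeq on GRCm38.p6, at chr2:129309973-129310222 (minus strand), chr2:129371140-129371389 (minus strand), chr1:40224830-40225079 (plus strand, the first of the annotated starts of *Il1r1*) and chr1:40515112-40515361 (plus strand), written 5′ to 3′ along the gene.
Il1a: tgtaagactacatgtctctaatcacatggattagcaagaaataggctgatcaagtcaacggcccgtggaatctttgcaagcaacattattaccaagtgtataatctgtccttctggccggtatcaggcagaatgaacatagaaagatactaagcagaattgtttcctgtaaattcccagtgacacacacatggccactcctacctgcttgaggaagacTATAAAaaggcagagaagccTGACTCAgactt
Il1b: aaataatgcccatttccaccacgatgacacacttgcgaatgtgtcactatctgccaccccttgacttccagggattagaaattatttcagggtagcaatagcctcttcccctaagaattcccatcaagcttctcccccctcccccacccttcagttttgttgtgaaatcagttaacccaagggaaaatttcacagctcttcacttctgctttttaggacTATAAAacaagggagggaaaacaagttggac
Il1r1: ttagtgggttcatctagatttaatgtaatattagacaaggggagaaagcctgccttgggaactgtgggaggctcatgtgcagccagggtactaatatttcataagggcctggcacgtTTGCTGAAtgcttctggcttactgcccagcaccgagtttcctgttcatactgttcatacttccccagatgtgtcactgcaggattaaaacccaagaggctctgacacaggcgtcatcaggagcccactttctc
Il18rap: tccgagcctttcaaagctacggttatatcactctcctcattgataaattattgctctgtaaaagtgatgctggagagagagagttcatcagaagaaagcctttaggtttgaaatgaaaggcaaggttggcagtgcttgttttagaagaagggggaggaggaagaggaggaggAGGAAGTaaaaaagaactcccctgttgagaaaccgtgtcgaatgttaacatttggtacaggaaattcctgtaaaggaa
Capitals mark the matches to 5 motifs searched on both strands: the TATA box (TATAAA, found in 12.4% of 32851 promoters of this length), AP-1 (TGANTCA, 6.75%), the ETS motif (AGGAAGT, 7.69%), C/EBP (TTGCNNAA, 9.56%) and NF-kB (GGG, any 5 bases and CC, 45.8%). *Il1a* held a TATA box that begins at base -32 from the start site and an AP-1 match that begins at -12, and *Il1b* held a TATA box at -31. *Il18rap* held an ETS match at -78, and *Il1r1* a C/EBP match at -133. No capitals overlap, and a match describes letters, not a bound site. RefSeq gave 16 start sites for the 10 members.

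The libraries held 11440169 to 15074909 counts on genes. Levels below are CPM, counts scaled to the size of the library by edgeR's TMM method over all 12 libraries. The labelled cell type was checked against markers. The summed level of 10 endothelial markers was 666 to 1280 CPM in WT-dim, 216 to 299 CPM in AS-dim, 9920 to 15800 CPM in WT-bright and 14900 to 17900 CPM in AS-bright libraries. The summed level of 10 monocyte and macrophage markers was 4620 to 8640 CPM in WT-dim, 9890 to 12900 CPM in AS-dim, 146 to 220 CPM in WT-bright and 233 to 333 CPM in AS-bright libraries, and in the bright table *Itgam* and *Fcgr1* were missing. For 6 neutrophil markers the sums were 463 to 2050 CPM in the dim and 0.759 to 8.75 CPM in the bright libraries, whose table lacked *S100a8*, *Cxcr2*, *Ly6g* and *Retnlg*. T cell, natural killer cell and B cell markers each summed to 179 CPM or more in every dim library and to 5.61 CPM or less in every bright library, where the table lacked 4 of 6 T cell, 4 of 6 natural killer cell and 1 of 5 B cell markers, and 2 of 6 dendritic cell markers, so that these sums cover fewer genes. Other markers differed by genotype as well. Proximal tubule markers summed to 1240 to 5690 CPM in WT-dim, 11.4 to 334 CPM in AS-dim, 385 to 2310 CPM in WT-bright and 46.6 to 428 CPM in AS-bright libraries, and those of the loop, distal tubule and collecting duct to 690 to 1650, 41.3 to 258, 384 to 528 and 24.6 to 221 CPM. Podocyte markers summed to 622 to 1230, 538 to 561, 965 to 1210 and 1350 to 1510 CPM, mesangial markers to 118 to 204, 59 to 105, 408 to 877 and 443 to 805 CPM, and dendritic cell markers to 77.5 to 130, 167 to 228, 74.8 to 139 and 94.3 to 123 CPM, in the same order of groups. The dendritic cell markers did not move together. In bright cells their sum was mostly *Zbtb46* (mean 66.5 CPM in WT and 90.7 CPM in AS) and *Clec9a* (42.6 and 15.3 CPM). There *Flt3* (0.043 and 0.306 CPM) and *Xcr1* (0.116 and 1.1 CPM) were low, below their dim means. The dim libraries thus went against a purely endothelial label, and "dim" below means the gate. In such bulk samples, fewer cells of a type and less RNA per cell cannot be told apart.

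Members made up 0.193% to 0.589% of the counts of a dim library and 0.00631% to 0.0146% of those of a bright library. Levels were compared between members per kilobase (kb) of the union of annotated exons. In the dim cells the order was led by *Il1b*, with 923 CPM per kb in WT and 1680 CPM per kb in AS, above *Il1rn* (237 and 215 CPM per kb), *Il1r2* (163 and 129), *Il18rap* (23.9 and 27.3) and the rest, down to *Il1r1* (0.465 and 0.439). Every dim library had more *Il1b* per kb than any of its other members, and *Il1b* ranked 14th to 85th among all genes by counts. *Il1rn* and *Il1r2* overlapped in WT-dim but not in AS-dim, *Il18rap* overlapped with its next neighbour in both, and the last places were taken by *Il18r1*, *Il1rap* and *Il1r1* in both genotypes.

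In the bright cells the order was another. *Il1a* had the highest mean, with 5.96 CPM per kb in WT and 21.9 CPM per kb in AS, followed by *Il1b* (5.59 and 8.30), *Il1r1* (3.32 and 7.22) and *Il33* (3.01 and 2.26), with *Il18rap* last (0.0298 and 0.0337). In WT-bright the ranges of *Il1a*, *Il1b* and *Il1r1* each overlapped with the next member, while that of *Il33* lay above its next, *Il1rn*. In AS-bright *Il1a*, at 20.4 to 22.8 CPM per kb, lay above every other member in every library, and *Il1b* and *Il1r1* overlapped.

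**Figure D1:**
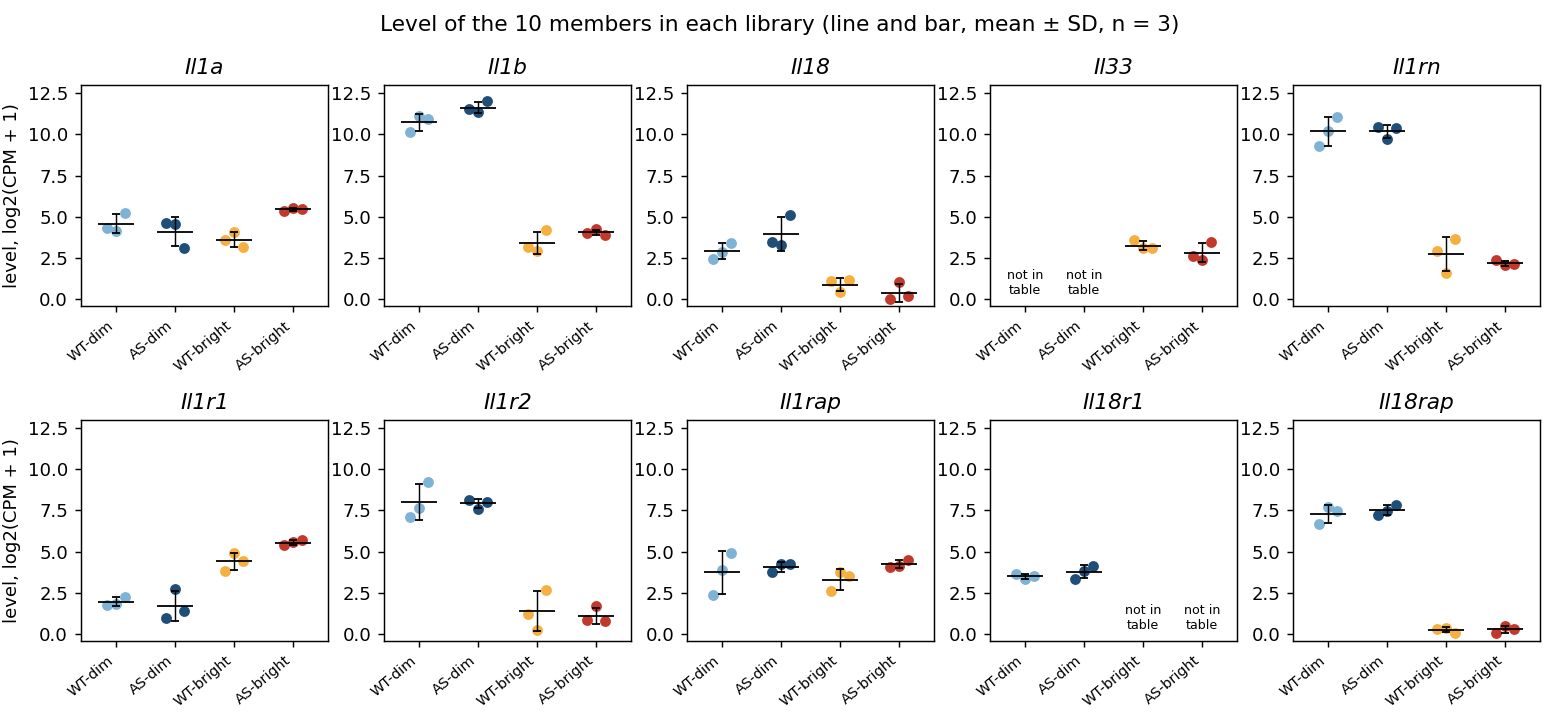
Level of each member as log2(CPM + 1) on the y axis in the 4 groups on the x axis. Points are libraries, lines are means and bars are SD (n = 3). *Il1b*, *Il1rn*, *Il1r2* and *Il18rap* sit far higher in dim than in bright cells, *Il1r1* sits higher in bright cells, and the 3 AS-bright points of *Il1a* lie above all others of that gene.

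Bright and dim cells of the same mice were compared within each genotype, to ask which part of the family belongs to which gate. The main fit had no term for the mouse, and a fit with the mouse as a block was an alternative. In WT, 1 of the 8 members tested was higher in bright cells (*Il1r1*) and 5 were lower (*Il1b*, *Il1rn*, *Il1r2*, *Il18*, *Il18rap*), where 25.3% of all genes passed, 13.8% higher and 11.5% lower. In AS, 2 of 8 were higher (*Il1r1* and *Il1a*) and the same 5 were lower, where 55.1% of all genes passed, 28.6% higher and 26.5% lower. *Il1r2*, *Il18* and *Il18rap* reached the level asked by the filter on low counts in every dim library but not in every bright library, so they entered these tests through the gate where they were high. Their calls are thus no independent result, and their values below are a description. Of the other 5, 1 was higher and 2 were lower in WT, and 2 were higher and 2 lower in AS. Of all genes that reached that level in every library of both gates, 13.9% were higher and 10.1% lower in WT, and 28.2% and 24.8% in AS. For 4 of these 5, all but *Il1rap*, the gates did not overlap in either genotype, against 41.9% of all genes tested in WT and 62.4% in AS, and the same 4 had an unadjusted p under 0.05 in the edgeR fit, against 37.4% and 60.1%. A member was called where its p from the quasi-likelihood test of edgeR, after Benjamini-Hochberg adjustment across the whole table, was under 0.05, which is the edgeR adjusted p given below, and fold changes (log2) are fitted values with their standard error (SE).

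*Il1b* encodes the main secreted ligand. It was at 1153, 2213 and 1917 CPM in the dim cells of WT mice 1, 2 and 3 and at 7.97, 6.77 and 17.2 CPM in their bright cells. In AS mice it was at 2925, 2575 and 4104 CPM in dim and at 15.2, 18.1 and 14.3 CPM in bright cells. Every dim library was above every bright library by a wide margin. The log2 fold change of bright over dim was -7.32 (SE 0.50, edgeR adjusted p = 1.51e-05) in WT and -7.67 (SE 0.29, edgeR adjusted p = 3.54e-08) in AS, a 160-fold and a 203-fold lower level. A gene antisense to it, *Il1bos*, was listed in the dim table only, with 8 to 38 counts.

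*Il1a* encodes the cell-associated ligand and did not follow *Il1b*. In WT mice 1, 2 and 3 it was at 19.1, 17.0 and 37.3 CPM in dim and at 11.3, 15.8 and 8.22 CPM in bright cells. In AS mice it was at 23.8, 22.9 and 7.66 CPM in dim and at 40.4, 45.1 and 44.2 CPM in bright cells. The groups of libraries did not overlap in either genotype, but bright was the lower in WT and the higher in AS. The log2 fold change was -1.02 (SE 0.44, edgeR adjusted p = 0.128) in WT, which did not pass, and 1.24 (SE 0.35, edgeR adjusted p = 0.0130) in AS, which did. The overlapping gene *Gm14023* had 6 to 45 counts a library against 96 to 691 for *Il1a*.

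*Il18* encodes a ligand made as a precursor. It was at 4.47, 6.25 and 9.70 CPM in WT-dim and at 9.97, 8.79 and 34.4 CPM in AS-dim, and at 1.14, 0.356 and 1.25 CPM in WT-bright and 0, 1.04 and 0.146 CPM in AS-bright cells. Bright libraries held 0 to 19 counts of it, all below the dim libraries. As a description, it was 7.04-fold lower in bright than in dim cells in WT (log2 -2.82, SE 0.62). In AS the log2 fold change was -5.38 (SE 0.87), which became -7.80 without bright library 2 of AS and -4.47 without dim library 3 of AS. The gene *Bco2* overlaps *Il18* on the other strand and had 26 to 96 counts in the dim and 0 to 169 counts in the bright libraries, so that part of the *Il18* counts in both gates, and the fold between them, is uncertain.

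*Il33*, the alarmin, was listed in the bright table alone. It was at 11.0, 7.55 and 7.50 CPM in WT-bright and at 5.10, 4.31 and 10.2 CPM in AS-bright cells. No value of it was listed for the dim cells, so no comparison of the gates was made. Every gene in either table had a total of at least 8 counts.

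*Il1rn*, the antagonist, was like *Il1b* lower in bright than in dim cells. It was at 620, 1172 and 2135 CPM in WT-dim, at 1408, 844 and 1317 CPM in AS-dim, at 6.71, 2.07 and 11.8 CPM in WT-bright and at 4.15, 3.26 and 3.35 CPM in AS-bright cells. All dim libraries lay above all bright libraries. The log2 fold change was -7.52 (SE 0.73, edgeR adjusted p = 0.000116) in WT and -8.38 (SE 0.31, edgeR adjusted p = 3.26e-08) in AS. The WT value became -8.13 without bright library 3.

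*Il1r1*, the signalling receptor, was the only member higher in bright cells of both genotypes. It was at 2.46, 2.62 and 3.79 CPM in WT-dim and at 13.5, 29.0 and 20.98 CPM in WT-bright cells of the same mice. In AS it was at 0.990, 5.72 and 1.68 CPM in dim and at 40.5, 47.1 and 50.2 CPM in bright cells. Every mouse had more of it in its bright cells. The difference was 7.30-fold in WT (log2 2.87, SE 0.48, edgeR adjusted p = 0.00247) and 16.7-fold in AS (log2 4.06, SE 0.45, edgeR adjusted p = 3.46e-05). Without dim library 2 of AS, the highest of its group, the AS value became 5.08.

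*Il1r2*, the decoy receptor, went the other way. It was at 139, 195 and 601 CPM in WT-dim, at 283, 195 and 261 CPM in AS-dim, at 1.33, 0.214 and 5.46 CPM in WT-bright and at 0.801, 2.22 and 0.728 CPM in AS-bright cells. As a description, it was 128-fold lower in bright cells of WT (log2 -7.00, SE 0.91) and 193-fold lower in AS (log2 -7.59, SE 0.36). In WT the value became -8.53 without bright library 3, -6.08 without dim library 3, and in AS -8.37 without bright library 2. Both libraries of WT mouse 3 were the highest of their groups in *Il1r2* and *Il1rn* and also in the summed neutrophil markers, with 2050 CPM in its dim library, against 476 and 620 CPM in the other WT-dim libraries, and 8.75 CPM in its bright library, against 0.759 and 0.926 CPM. Its libraries were also the highest of their groups in summed monocyte and macrophage markers. These were 8640 CPM against 5570 and 4620 CPM in WT-dim, and 220 CPM against 164 and 146 CPM in WT-bright libraries. WT-dim library 3 also had the most B cell markers of its group, 1070 CPM against 550 and 632 CPM. The part of any of these markers in the values of *Il1r2* and *Il1rn* was not tested.

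*Il1rap*, the shared accessory chain, overlapped between the gates in both genotypes. It ranged from 4.12 to 29.8 CPM in WT-dim, 12.4 to 18.4 CPM in AS-dim, 5.06 to 12.7 CPM in WT-bright and 15.96 to 21.9 CPM in AS-bright cells. The log2 fold change of bright over dim was -0.73 in WT (95% interval -2.56 to 1.10, edgeR adjusted p = 0.452) and 0.16 in AS (-0.56 to 0.88, edgeR adjusted p = 0.627). Neither difference passed the threshold, and the WT interval was the wider.

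The receptor chains for IL-18 were measured mainly in the dim gate. *Il18r1* was listed in the dim table alone, at 11.5, 9.21 and 10.7 CPM in WT and 9.19, 13.3 and 16.8 CPM in AS. *Il18rap* was at 101, 210 and 174 CPM in WT-dim and at 149, 179 and 225 CPM in AS-dim, and bright libraries held 1 to 6 counts of it. Its summed counts in bright cells, 9 in WT and 10 in AS, were the lowest of the members listed there. As a description, its log2 fold change was -9.55 (SE 0.52) in WT and -9.58 (SE 0.37) in AS, the latter -10.27 without bright library 2. From the summed counts, dim exceeded bright 811-fold in WT (95% exact binomial interval 427 to 1774) and 783-fold in AS (425 to 1633), where the intervals cover counting error only.

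**Figure D2:**
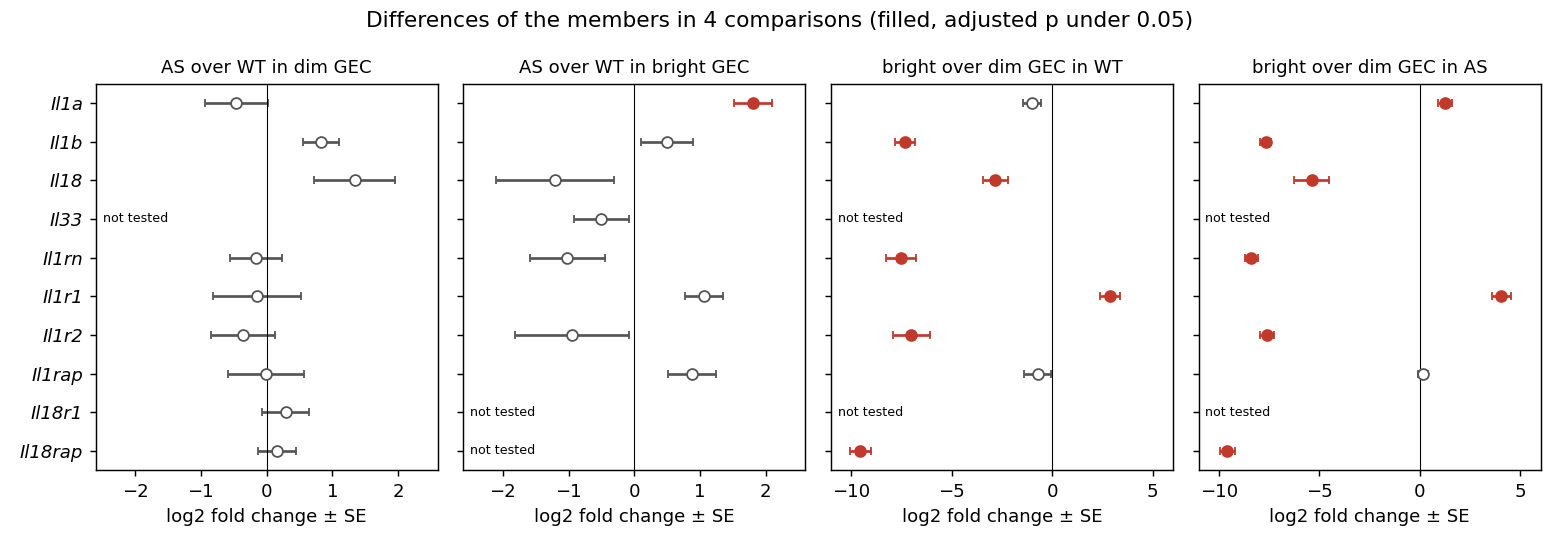
Fitted log2 fold change of each member on the x axis, with its SE as the bar, in 4 comparisons. Filled red points passed an adjusted p of 0.05. The panels of AS over WT hold 1 filled point, *Il1a* in bright GEC at 1.81, while those of bright over dim hold 6 in WT and 7 in AS. Of the latter, *Il1r2*, *Il18* and *Il18rap* were tested through their high counts in dim cells.

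Ratios between members within a library, taken per kb, set these patterns side by side. *Il1a* over *Il1b* was 0.0018 to 0.0188 in the dim libraries, 0.461 to 2.26 in WT-bright and 2.41 to 2.99 in AS-bright libraries. *Il1r2* over *Il1r1*, decoy over signalling receptor, was 114 to 953 in the dim and 0.0246 to 0.868 in the bright libraries. *Il1r1* over *Il1rap* was 0.143 to 1.06 in the dim and 3.49 to 5.02 in the bright libraries. For these 3 ratios no dim library overlapped with a bright library. *Il1rn* over *Il1b* was 0.182 to 0.384 in WT-dim, 0.111 to 0.166 in AS-dim, 0.105 to 0.290 in WT-bright and 0.0622 to 0.0944 in AS-bright libraries. It was thus lower in every AS library than in any WT library of the same gate, a description of 3 against 3 libraries in which no test was made. The summed monocyte and macrophage markers were also apart in both gates. They were 4620 to 8640 CPM in WT-dim and 9890 to 12900 CPM in AS-dim, and 146 to 220 CPM in WT-bright and 233 to 333 CPM in AS-bright libraries. Their part in the ratio was not tested.

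**Figure D3:**
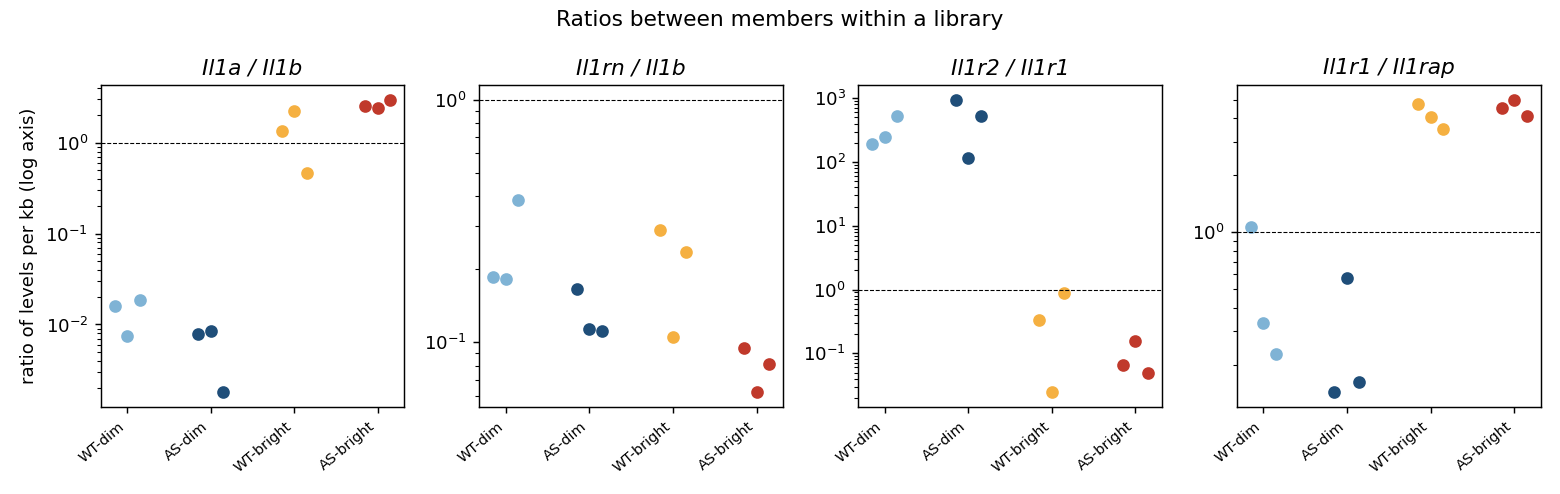
Ratios of levels per kb between 2 members within each library, on log axes, by group. The dashed line marks equal levels. *Il1r2* over *Il1r1* is 114 or more in each dim library and 0.868 or less in each bright library, and *Il1rn* over *Il1b* is lower in AS than in WT within each gate.

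AS and WT mice were then compared within a gate, to ask what the loss of Col4a5 changes. In the bright cells 1 of 8 members tested rose, *Il1a*, and none fell, where 0.452% of all genes passed, 0.188% higher and 0.264% lower. *Il18rap* was in the table but had too few counts to be tested. *Il1a* was 3.51-fold higher in AS-bright than in WT-bright cells (log2 1.81, SE 0.29, edgeR adjusted p = 0.0345), with 43.2 ± 2.51 CPM in AS and 11.8 ± 3.82 CPM in WT (SD, n = 3). Over 15 alternatives the log2 value stayed at 1.58 to 2.05 and passed in 9, with adjusted p of 2.46e-06 to 0.233. It did not pass with the replicate number as a block (edgeR adjusted p = 0.063), with all 12 libraries in 1 fit (0.0515) or with edgeR's version 3 fit (0.0558). Without WT-bright library 3, AS-bright library 1 or AS-bright library 3, *Il1a* was at 1.58, 1.85 and 1.78 with adjusted p = 0.0898, 0.233 and 0.153 by edgeR, and in each of these 3 fits no gene at all passed. The same libraries were also apart in their summed markers of monocytes and macrophages (146 to 220 CPM in WT-bright, 233 to 333 CPM in AS-bright), of podocytes (965 to 1210 and 1350 to 1510 CPM) and of the loop, distal tubule and collecting duct (384 to 528 and 24.6 to 221 CPM), although no single marker of these lists passed. Their part in the value of *Il1a* was not tested.

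*Il1r1* and *Il1rap*, the chains of the IL-1 receptor, did not pass in the bright cells, although their groups did not overlap. The log2 fold change of AS over WT was 1.06 for *Il1r1* (SE 0.29, edgeR adjusted p = 0.0867) and 0.88 for *Il1rap* (SE 0.36, edgeR adjusted p = 0.189). Groups did not overlap for 3 of the 8 members, against 24.5% of all genes tested, and the same 3 had an unadjusted p under 0.05 in the edgeR fit, against 21.8%. *Il1r1* passed in 2 of 15 alternatives, DESeq2 and edgeR's likelihood ratio test. The summed endothelial markers were 9920, 15800 and 13300 CPM in WT-bright and 17900, 15900 and 14900 CPM in AS-bright libraries, and none of the 10 passed in this comparison. Their part in the values of *Il1r1* was not tested.

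The other members in bright cells had wide intervals. The log2 fold change was 0.50 for *Il1b* (95% interval -0.58 to 1.58), -1.02 for *Il1rn* (-2.61 to 0.57), -0.50 for *Il33* (-1.67 to 0.67), -0.95 for *Il1r2* (-3.37 to 1.47) and -1.21 for *Il18* (-3.71 to 1.29). Without WT-bright library 3 *Il1r2* turned to 0.56 and *Il1rn* became -0.43, and *Il18* became -3.59 and *Il1r2* -1.69 without AS-bright library 2, which held 16 of the 18 *Il18* counts of its group.

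In the dim cells none of the 9 members passed, where 8.63% of all genes did, 2.21% higher and 6.42% lower. *Il1b* came closest, with a log2 fold change of AS over WT of 0.83 (SE 0.27, edgeR adjusted p = 0.0958, 95% interval 0.07 to 1.59) and with its lowest AS library, 2575 CPM, above its highest WT library, 2213 CPM. It was the 1 member of 9 without overlap between groups, against 31.2% of all genes, and the 1 member with an unadjusted p under 0.05 in the edgeR fit, against 26.3%. DESeq2, edgeR's likelihood ratio test and the other alternatives called no member either, and the adjusted p of *Il1b* ran from 0.0629 to 0.279 over 15 of them. The summed monocyte and macrophage markers did not overlap either, with 4 of 10 higher in AS and a median log2 fold change of 0.75, while 6 of 9 endothelial, 5 of 9 proximal tubule, 5 of 7 loop, distal tubule and collecting duct and 3 of 6 podocyte markers were lower in AS. Their part in the values of *Il1b* was not tested.

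Among the other members in dim cells, *Il18* had a log2 fold change of 1.34 (SE 0.62, edgeR adjusted p = 0.212), which became 0.44 without AS-dim library 3, the library at 34.4 CPM. *Il1a* was at -0.46 (95% interval -1.80 to 0.88), *Il18r1* at 0.29 (-0.72 to 1.29) and *Il18rap* at 0.16 (-0.63 to 0.96). *Il1rn* at -0.16, *Il1r1* at -0.15, *Il1r2* at -0.36 and *Il1rap* at -0.01 changed sign in at least 1 alternative. No receptor chain was called between genotypes in dim cells.

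**Figure D4:**
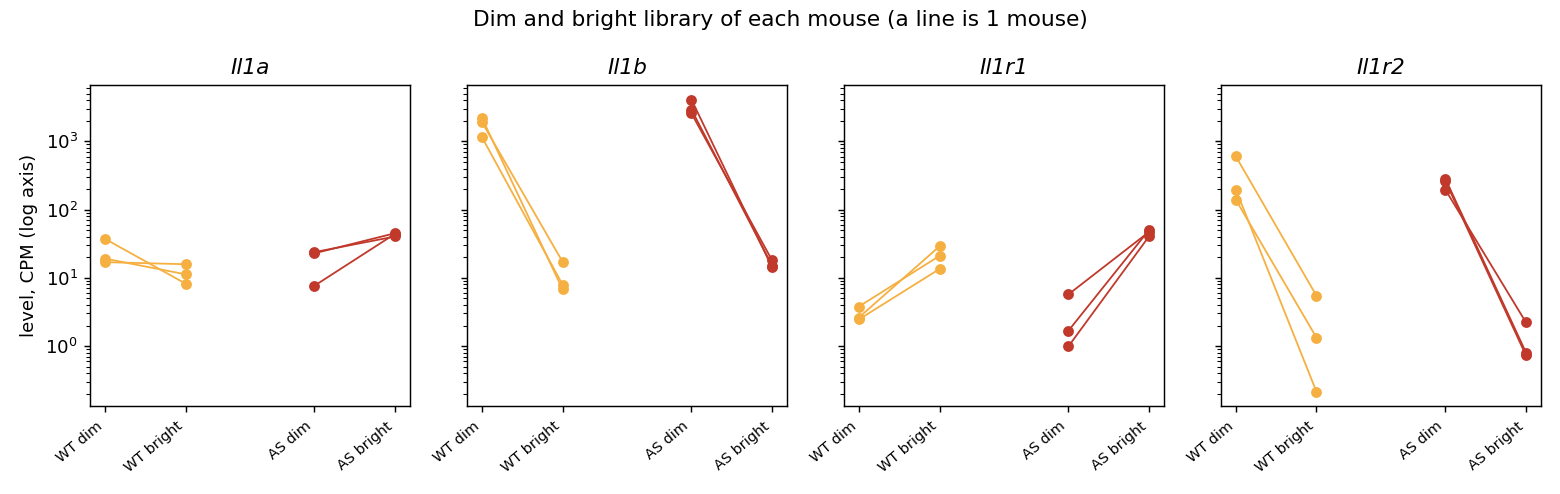
Level of *Il1a*, *Il1b*, *Il1r1* and *Il1r2* in CPM on a log axis, with a line from the dim to the bright library of each mouse, for 3 WT and 3 AS mice. *Il1a* is lower in the bright library in each WT mouse and higher in each AS mouse, while *Il1b* is lower and *Il1r1* higher in the bright library of all 6.

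The difference between these effects was tested as the interaction of genotype and gate, in 1 fit of all 12 libraries. *Il1a* was the 1 member of 8 that passed, where 3.77% of all genes did, 2.96% with a higher and 0.815% with a lower value. Its log2 value was 2.31 (SE 0.59, edgeR adjusted p = 0.0474), the difference between AS over WT in bright and in dim cells, which were at 1.81 and -0.46 in the separate fits of each gate. In the same test 7 of 10 endothelial markers (median log2 2.63), 5 of 6 podocyte markers (2.44) and 1 of 9 proximal tubule markers (1.74) passed with a higher value, and their part in the value of *Il1a* was not tested. It did not pass with the mouse as a replicate block (2.35, edgeR adjusted p = 0.0508), and it passed in 5 of 20 alternatives, with values of 1.87 to 2.58 and adjusted p of 0.00973 to 0.109. *Il1r1* was at 1.24 (SE 0.71, edgeR adjusted p = 0.381), *Il1b* at -0.29 (SE 0.48, edgeR adjusted p = 0.801) and *Il1rn* at -0.80 (SE 0.73, edgeR adjusted p = 0.611). For *Il18*, at -2.51, the edgeR adjusted p was 0.342. With 1 library left out, *Il18* was at -5.02 (without AS-bright 2) and -1.59 (without AS-dim 3), *Il1r1* at 2.16 (without AS-dim 2) and *Il1rn* at -0.17 (without WT-bright 3), none of which passed.

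The rest of the pathway was described by 4 lists. Of 15 other ligands and receptors of the family, 5 were tested in dim cells and none passed between genotypes by edgeR or DESeq2, with 1 at an unadjusted p under 0.05, where 8.63% of all genes passed and 26.3% had such a p. *Il1f9*, the ligand IL-36 gamma, was listed in the dim table only, at 15.4, 6.42 and 33.0 CPM in WT and 12.9, 3.81 and 9.90 CPM in AS. *Il1rl1*, the receptor of IL-33, was also in the dim table only, with 1 to 34 counts a library. *Il33* was thus listed only in bright cells and its receptor only in dim cells. Of the 3 tested between gates, *Il1rl2*, the IL-36 receptor, was higher in bright cells of WT (log2 2.61, SE 0.51, edgeR adjusted p = 0.00516), at 3.30 without WT-dim library 1, where 13.8% of all genes were higher. In AS all 3 were higher in bright cells, where 28.6% of all genes were, *Il1rl2* at 1.93, *Sigirr*, a receptor that dampens the family's signalling, at 1.73, and *Il18bp*, the soluble IL-18 inhibitor, at 1.22, with edgeR adjusted p of 0.000153, 0.00126 and 0.0404. *Il18bp* passed in 9 of 14 alternatives and was lost with any 1 of 5 libraries left out, at 0.82 without AS-bright library 3 (edgeR adjusted p of 0.0725 to 0.174).

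Of 16 inflammasome and processing genes, 5 of the 12 tested were lower in WT-bright than in WT-dim cells and none was higher, where 11.5% of all genes were lower. They were *Nlrp3*, *Mefv*, *Aim2*, *Naip6*, all sensors, and *Casp1*, the protease that matures IL-1 beta and IL-18, the last with a log2 fold change of -3.37 (SE 0.40, edgeR adjusted p = 0.000336). *Nlrp3*, *Mefv* and *Naip6* reached the filter's level in every dim but not in every bright library. These 3 thus entered through the gate where they were high, and their calls are no independent result. Of the other 9, 2 were lower, where 10.1% of all genes that reached it in both gates were. *Nlrp3* had 0 to 1 counts in a WT-bright library, a level 419-fold below dim from summed counts (95% exact binomial interval 116 to 3467). Without 1 of the WT-bright libraries, *Mefv* went from -7.23 to -9.17 and *Aim2* from -5.14 to -6.24 (library 1), and *Naip6* from -4.13 to -5.75 (library 2). In AS 8 were lower, where 26.5% of all genes were, *Mefv* at -9.50, *Nlrp3* at -6.39, *Aim2* at -4.72 and *Naip6* at -4.45 the most. Of the 9 that reached the filter's level in both gates, 1 was higher, where 28.2% of all such genes were. It was *P2rx7*, the ATP-gated channel that triggers the NLRP3 inflammasome (log2 0.82, SE 0.20, edgeR adjusted p = 0.00589). Of these 9, 5 were lower, where 24.8% of all such genes were, and *Mefv*, *Nlrp3* and *Naip6* again entered through the dim gate. Without AS-bright library 3 *Mefv* was at -10.42 and *Aim2* at -5.52, and without AS-bright library 2 *Naip6* was at -5.64.

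Between genotypes, 4 of 16 inflammasome genes rose in AS-dim cells and none fell, where 2.21% of all genes rose and 6.42% fell. They were *Naip6* at 1.42, *Naip2* at 1.12, *Casp1* at 1.05 and *Mefv* at 1.02 on the log2 scale, with edgeR adjusted p of 0.0361, 0.0296, 0.0464 and 0.0399. The median over the 16 was 0.98, against -0.02 over all genes. *Casp1* was at 62.2 ± 15.6 CPM in AS and 29.4 ± 3.73 CPM in WT (SD, n = 3). None of the 4 was called without WT-dim library 1 or without AS-dim library 1, 2 or 3, 1 gene was called without WT-dim library 2 or with edgeR's version 3 fit, and 2 with every gene with a count. *Casp1* was lost with any 1 library left out, at 0.95 without WT-dim library 3 (edgeR adjusted p = 0.0705). It passed in 6 of 15 alternatives. All 4 calls were lost with the replicate number as a block, which pairs different mice (edgeR adjusted p of 0.0598 for *Naip2*, 0.064 for *Mefv*, 0.0792 for *Naip6* and 0.113 for *Casp1*), and that of *Mefv* with all 12 libraries in 1 fit (edgeR adjusted p = 0.0691). Markers of several cell types moved in the same comparison. Of the 10 monocyte and macrophage markers 4 rose (median log2 0.75), while 6 of 9 endothelial (-2.18), 5 of 9 proximal tubule (-4.25), 5 of 7 loop, distal tubule and collecting duct (-2.96) and 3 of 6 podocyte markers (-1.80) fell and 1 podocyte marker rose. Their part in these values was not tested. In the bright cells none of the 9 tested passed by edgeR or DESeq2, and 0 had an unadjusted p under 0.05, where 0.452% of all genes passed by edgeR, 1117 genes by DESeq2, and 21.8% had such a p.

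Of 16 signalling genes downstream of the receptors, none passed between genotypes by edgeR in either gate, with 4 at an unadjusted p under 0.05 in dim and 2 in bright cells, against 26.3% and 21.8% of all genes, where DESeq2 called 4 and 1. Over all genes 8.63% in dim and 0.452% in bright cells passed by edgeR, and 2213 and 1117 genes by DESeq2. In WT *Irak2*, a kinase of the receptor complex, and *Irak3*, its inhibitory relative, were lower in bright cells, at -1.83 and -1.58 (edgeR adjusted p = 0.00119 and 0.0356), and the rest did not pass. These 2 of 16 lie near the share of all genes that were lower, 11.5%. *Irak3* was lost without WT-dim library 3 or any 1 of the WT-bright libraries (edgeR adjusted p of 0.0693 to 0.123). In AS 3 were higher in bright cells, *Peli2* at 1.46, *Tollip* at 1.19 and *Map3k3* at 0.60, and 4 were lower, *Irak3* at -1.94, *Irak2* at -1.81, *Irak4* at -1.60 and *Tab2* at -0.61, where 28.6% and 26.5% of all genes passed in these directions. With the mouse as a replicate block *Map3k3* (edgeR adjusted p = 0.0553) and *Tab2* (0.0637) did not pass. *Tab2* did not pass with every gene with a count or with the version 3 fit either (0.0674 and 0.0612), and *Map3k3*, *Tab2* and *Peli2* were each lost with any 1 of 4 libraries left out. *Peli2* was at 2.54 without AS-dim library 1.

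Of 18 genes that respond to the family, *Sele* was the 1 of 11 tested that rose in AS-bright cells, where 0.188% of all genes rose. *Sele* encodes E-selectin, a leukocyte adhesion molecule of activated endothelium. It was at 40.2, 59.0 and 49.9 CPM in WT-bright and at 152, 213 and 216 CPM in AS-bright cells, a log2 fold change of 1.90 (SE 0.23, edgeR adjusted p = 0.0291). *Vcam1*, another adhesion molecule, was at 1.70 (SE 0.32, edgeR adjusted p = 0.0516). The same libraries were apart in the marker sums given above for *Il1a*. Those were the sums of monocytes and macrophages, of podocytes and of the loop, distal tubule and collecting duct. Their part in the values of *Sele* and *Vcam1* was not tested. No responsive gene was called without WT-bright library 3, AS-bright library 1 or AS-bright library 3, or with edgeR's version 3 fit. DESeq2 called 3, among 1117 genes in all, and 6 of the 11 had an unadjusted p under 0.05 in the edgeR fit, against 21.8% of all genes. None of 14 passed in the dim cells by edgeR, where 8.63% of all genes did, with 7 at an unadjusted p under 0.05, against 26.3% of all genes, and 1 called by DESeq2, among 2213 genes in all. *Sele* also had an interaction of 2.48 (SE 0.60, edgeR adjusted p = 0.0376), which passed in 8 of 20 alternatives and was at 3.19 without AS-dim library 3. In that test 3.77% of all genes passed, and so did 7 of 10 endothelial markers, with a median of 2.63, whose part in the value of *Sele* was not tested.

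Between the gates the responsive genes split. In WT *Sele* at 3.74, *Cxcl1*, a neutrophil chemokine, at 2.30 and *Icam1*, an adhesion molecule, at 1.85 were higher in bright cells, and 6 of the 12 tested were lower, where 13.8% and 11.5% of all genes were higher and lower, *Ccl2* at -5.32, *Cxcl2* at -4.91, *Ptgs2* at -4.48 and *Tnfaip3* at -3.05 the most. *Icam1* was lost without WT-dim library 3 or WT-bright library 2 (edgeR adjusted p = 0.0562 and 0.0803), and *Ptgs2* was at -3.87 without WT-dim library 2. In AS 4 of 13 were higher, *Sele* at 6.17, *Vcam1* at 3.64, *Cxcl1* at 2.92 and *Icam1* at 1.94, and 9 were lower, *Ptgs2* at -4.58, *Cxcl2* at -4.43 and *Ccl2* at -4.34 among them, where 28.6% and 26.5% of all genes were higher and lower. *Sele* was at 6.88 without AS-dim library 3, and *Ptgs2* at -5.66 without AS-bright library 3. *Ccl2* in both genotypes and *Csf3* in AS entered through the dim gate. Of the 11 others, 3 were higher and 5 lower in WT, and 4 and 7 in AS. *Ccl2* had 1 to 3 counts in a WT-bright library, a level 43.8-fold below dim from summed counts (95% exact binomial interval 20.9 to 110).

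For each of the 8 members in both tables, the genes with the most similar pattern over the 12 libraries were found by the mean absolute difference of centred log2 CPM. *Il1b* was nearest to *Lair1* (0.22), an inhibitory leukocyte receptor, and to *Cybb* and *Cd44* (0.30 each), and *Il1rn* to *Clec4e* (0.25) and *Clec4d* (0.28), lectins of myeloid cells, and *Csf3r* (0.37), the G-CSF receptor. *Il1r2* had *Il1rn* among its 3 nearest genes (0.42), after *Acod1* (0.41) and *Cd300ld* (0.42). *Il18rap* was nearest to *Lilr4b* (0.40) and *Dock2* (0.45). *Il1r1* was nearest to *Epha2* (0.38), *Il1a* to *Calm3* and *Ttc7b* (0.41 each), and *Il1rap* to *Ext1* (0.29). *Il18* had no gene nearer than *Iqgap2* (0.47). The points share the 6 mice and the large difference between the gates, so these distances describe a pattern and no more.

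Within the dim gate, levels of *Il1r2* and the summed neutrophil markers had nearly the same order. The libraries at 463 and 476 CPM of neutrophil markers had 195 and 139 CPM of *Il1r2*, those at 620, 670 and 812 CPM had 195, 261 and 283 CPM, and the library at 2050 CPM had 601 CPM. The highest sum of monocyte and macrophage markers, 12900 CPM in AS-dim library 3, stood beside the highest *Il1b*, 4104 CPM, but in WT-dim the lowest sum, 4620 CPM in library 2, stood beside the highest *Il1b* of the group, 2213 CPM, and the highest sum, 8640 CPM in library 3, beside 1917 CPM. These are 6 libraries of 2 genotypes, and the relation was not tested.

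**Figure D5:**
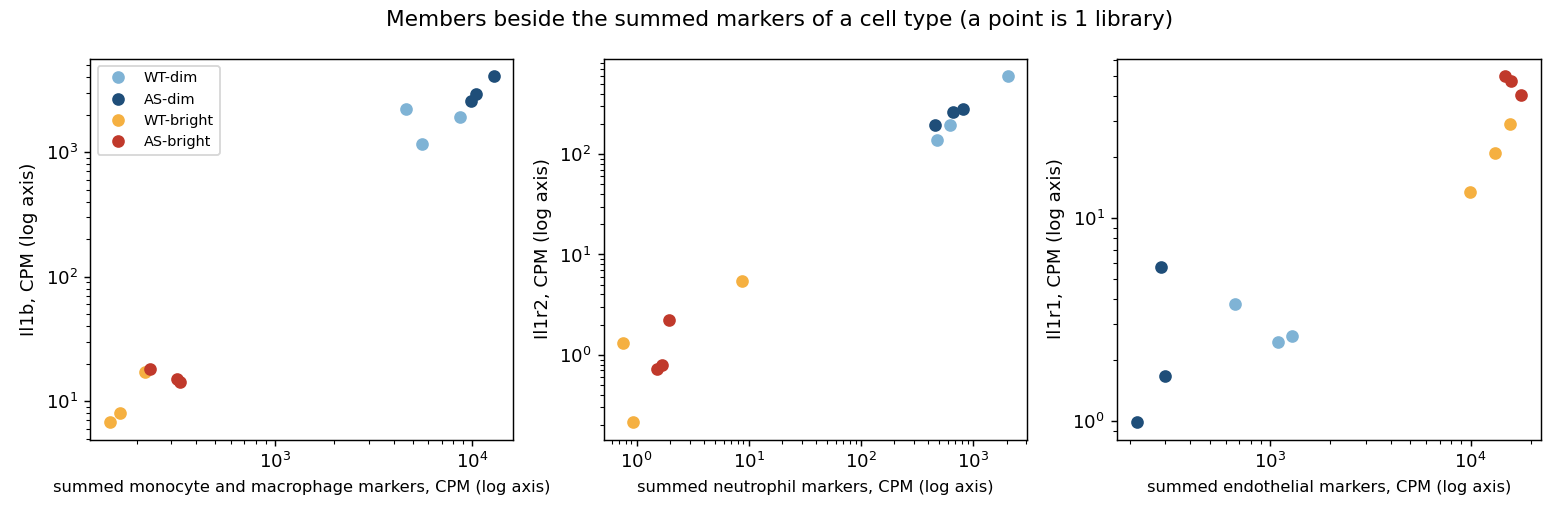
*Il1b*, *Il1r2* and *Il1r1* in CPM on the y axes beside the summed CPM of monocyte and macrophage, neutrophil and endothelial markers on the x axes, all log axes, with 1 point a library. Dim and bright libraries form separate groups in each panel, and within the dim libraries the point with 2050 CPM of neutrophil markers has the most *Il1r2*, 601 CPM.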

How the data were processed

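RNA-seq of 12 libraries of sorted GEC was analysed. The authors deposited, per gate, a table of counts of reads on genes, which are not normalized, with RPKM, a gene length and their own edgeR statistics. The submitters' processing notes name FastQC 0.11.5, cutadapt, Trimmomatic, STAR 2.6.0c and build GRCm38.p5. The strand setting of the counting is not given in the sources used here. The deposited RPKM were not tested. For 98.2% of the genes compared, the length used by the authors equalled the exons summed over all transcripts, which lowers RPKM of genes with many isoforms, so lengths here are exon unions of Gencode M21. The authors' fold changes, p-values and FDR were not used.

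Counts were tested with edgeR 4.0.16 in R 4.3.3 by the quasi-likelihood test, with TMM, filterByExpr (minimum count 10) and Benjamini-Hochberg adjustment over all genes, at 0.05. The 92 ERCC spike-ins, 0.0286% to 0.282% of counts, were left out. Depth was 11440169 to 15074909 counts, and intervals from counts cover counting error only. Alternatives were RLE, library sizes alone, DESeq2 1.42.0, the likelihood ratio test, other filters, a replicate block, all libraries in 1 fit, each library left out and edgeR's version 3 fit. On simulated data, the share of false calls of the quasi-likelihood fit was above its threshold in all 5 comparisons and was lower with the version 3 fit in 4 of the 5, which limits calls near 0.05. The dim and bright library of a mouse share its number in the labels, and their deviations correlated at 0.0796 to 0.385 across genes (mean 0.197 in WT and 0.213 in AS). Pairs of replicates gave a chi-square of 29.5 to 104 per degree of freedom. With 3 mice a group, an exact permutation test cannot go below 0.1. Members and lists were chosen with earlier results of these data known. Every member is named. Of each list, up to 4 genes that passed without overlap are named by size, or all where 5 or fewer passed, and further list genes (*Vcam1*, *Il1f9*, *Il1rl1*, *Tnfaip3*, and those of a direction with few calls) after their values were seen.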

Additional observations from a re-analysis of the deposited data

Results flagged for a closer look

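The effect of AS on *Il1a* differed between bright and dim cells by 2.31 on the log2 scale in the test of that difference (SE 0.59, edgeR adjusted p = 0.0474). AS over WT was 1.81 in bright and -0.46 in dim cells. The mean levels were 43.2 CPM in AS-bright, 11.8 CPM in WT-bright, 18.1 CPM in AS-dim and 24.5 CPM in WT-dim cells. The difference kept its direction in 20 of 20 alternatives and passed the threshold in 5. In the same test 7 of 10 endothelial markers, with a median of 2.63, and 5 of 6 podocyte markers, with a median of 2.44, passed with a higher value, and their part in the value of *Il1a* was not tested.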

How the results depend on the processing

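Of 8 members tested between gates, the 6 called in WT and the 7 called in AS passed in all 14 alternatives of each comparison, with *Il1r2*, *Il18* and *Il18rap* tested through their high counts in dim cells, and none of the 9 members in dim cells passed between genotypes in any of 15. The counts of calls between genotypes depended on the fit, and the cause was not tested. In dim GEC, 1263 genes passed in all, against 2213 with DESeq2, 1946 with the likelihood ratio test, 2106 with all 12 libraries in 1 fit, 582 with edgeR's version 3 fit (added after the data were seen) and 0 to 1825 with 1 library left out. In bright GEC, 65 genes and 1 member passed, against 1117 and 2 with DESeq2, 827 and 2 with the likelihood ratio test, 139 and 0 with all 12 libraries in 1 fit, and 0 and 0 with the version 3 fit. There, 39 genes passed with every gene with a count, and 0 to 281 genes and 0 to 1 members with 1 library left out. For the interaction, 569 genes and 1 member passed, against 1186 genes with DESeq2, 1114 with the likelihood ratio test and 252 to 857 with 1 library left out. The member, *Il1a*, was lost there (0 members) with RLE, library sizes alone, the filter on average logCPM and the version 3 fit, and 0 to 1 members passed with 1 library left out.

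With the replicate block, 494 genes passed in dim GEC and 16 genes and 0 members in bright GEC, where the pairing of WT and AS numbers is between different mice, whose deviations correlated at -0.151 to 0.124. With the mouse as the block, 877 genes and 0 members passed for the interaction, and no call of a member between gates changed, while the pathway genes *Map3k3* and *Tab2* lost theirs in AS. *Il1rap* in dim GEC was at 0.27 and the interaction of *Il18rap* at 0 under the block.

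The direction changed with the setting for some values that did not pass. For AS over WT in dim GEC, *Il1rap* was at 0.06 with library sizes alone and 0.01 in 1 fit of all libraries. With 1 library left out, *Il1rn* ran from -0.50 to 0.37, *Il1r1* from -1.24 to 0.25, *Il1r2* from -0.71 to 0.53, *Il1rap* from -0.46 to 0.79 and *Il18rap* from -0.08 to 0.35. In bright GEC, *Il1r2* ran from -1.69 to 0.56, and for bright over dim in WT, *Il1rap* from -1.19 to 0.10. The interaction of *Il18rap* was at -0.02 with RLE and with DESeq2, -0.11 with library sizes alone, -0.12 with the filter on average logCPM and -0.75 to 0.42 with 1 library left out, and that of *Il1b* ran from -0.56 to 0.24 and of *Il1r2* from -1.44 to 1.01. With the deposited lengths (an alternative added later) the first 4 places of the order per kb were the same in each group. Depth limits *Il18*, *Il1r2* and *Il18rap* in bright cells, where libraries held 0 to 83 counts.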
